A study of Arabidopsis thaliana with 14 samples.

Results

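The regions described here are those deposited for both gFLM and the splice variant iFLMbeta at the same place in the Arabidopsis genome, whether or not GFP was enriched there. They were chosen by position alone: any gFLM region on the 5 nuclear chromosomes that overlapped an iFLMbeta region by 1 bp or more formed a pair with it. This gave 2378 pairs, built from 2356 of 19879 gFLM regions (11.9%) and 2352 of 13791 iFLMbeta regions (17.1%). In all, 22 gFLM and 26 iFLMbeta regions belong to more than 1 pair, so the pairs are not fully independent of each other.

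FLOWERING LOCUS M (FLM) is a MADS-box transcription factor that delays flowering in cool conditions. Its pre-mRNA is spliced in alternative ways as the temperature changes, and FLMbeta is the form known to act as a repressor together with SVP, another MADS-box protein. MADS-box proteins bind DNA as dimers and larger complexes at A/T-rich elements called CArG boxes, often in promoters of other regulators of flowering and flower development.

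Binding was measured by chromatin immunoprecipitation and sequencing (ChIP-seq) in whole Columbia-0 seedlings with an antibody against GFP. The gFLM-GFP group had 3 libraries and its control 3, from seedlings grown in long days for 15 days at 16 °C. The iFLMbeta-GFP group had 2 libraries and its control 2, from seedlings grown in long days for 10 days at 23 °C. In the controls FLM was untagged, and all material was collected 8 h after lights on (zeitgeber time). The meaning of the prefixes g and i, the promoters, the number of lines per construct and the state of the native FLM gene were not stated in the labels. Construct, age and growth temperature change together between the groups, so their parts in any difference cannot be told apart. The labels do not say whether replicate libraries came from separate plants, so a p-value here sets a difference against the variation among the libraries at hand, and that variation may be technical only. Because the samples are whole seedlings, binding in fewer cells and weaker binding per cell cannot be told apart either.

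Read depth was uneven. Over all deposited regions of the nuclear chromosomes the GFP libraries of gFLM held 435306, 74499 and 155359 reads and their controls 180798, 17161 and 195081. Those of iFLMbeta held 194811 and 181951 reads, with 108460 and 52819 in the controls. Replicate 2 of gFLM was the smallest of both kinds, and its control had no read at 1059 of the 2378 pairs, where the ratio depends on the added read. The ratio used below is the log2 of (GFP reads + 1) over (control reads + 1), each divided by its library's sum over the deposited table. It is therefore relative to the other deposited regions of the same construct, and a uniform difference in binding between the constructs would not be seen. The iFLMbeta columns are set against the control column with the same position in the table. The mean over columns does not depend on that choice, whereas the SD does.

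Overlap was concentrated among the firmest regions of both lists. A region is said to pass where the authors' q-value was 0.05 or less in every replicate. Passing regions made up 0.8% of the gFLM table and 1.46% of the iFLMbeta table. Of the 159 that passed in gFLM, 149 were shared (93.7%), and of the 202 in iFLMbeta 185 were (91.6%). The pairs then fall into 109 that passed in both constructs, 41 in gFLM only, 76 in iFLMbeta only and 2152 in neither. Of the 50 best-ranked regions of each list, 38 overlapped (76%), and of the 100 best 73 did (73%).

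The 10 passing gFLM regions without any iFLMbeta counterpart had a median log2 ratio of 1.30, against 1.75 for the shared ones. The best ranked of them, at rank 98, lies between BRG3 and AT3G12930. For iFLMbeta the medians were 0.75 over the 17 unshared and 1.02 over the shared passing regions. Its best-ranked unshared region, at rank 27, lies in a coding exon of PIL2 (chromosome 3, 22989091 to 22989446, build TAIR10) at 0.80 ± 0.73 (SD, n = 2).

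At the 109 pairs that passed in both constructs, reads were concentrated in every GFP library and near the level of the rest of the table in every control. These regions covered 0.972% of the length of the gFLM table and held 5.48%, 6.99% and 3.77% of the reads of its 3 GFP libraries, against 0.882%, 0.973% and 1.02% in the controls. In iFLMbeta they covered 1.32% of the table and held 4.02% and 5.27% of the GFP reads, against 1.52% and 1.6% in the controls. Divided by the share of length, the concentration was 5.63, 7.19 and 3.88 times in gFLM-GFP, and 3.05 and 4 times in iFLMbeta-GFP. The lowest gFLM library thus lay below the highest iFLMbeta library. Set over the control of the same number, the values were 6.21, 7.18 and 3.69 for gFLM and 2.64 and 3.3 for iFLMbeta, and on that measure the groups did not overlap. These pairs were selected for low q in all 5 GFP libraries, so the excess over control is given by their choice.

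**Figure D1:**
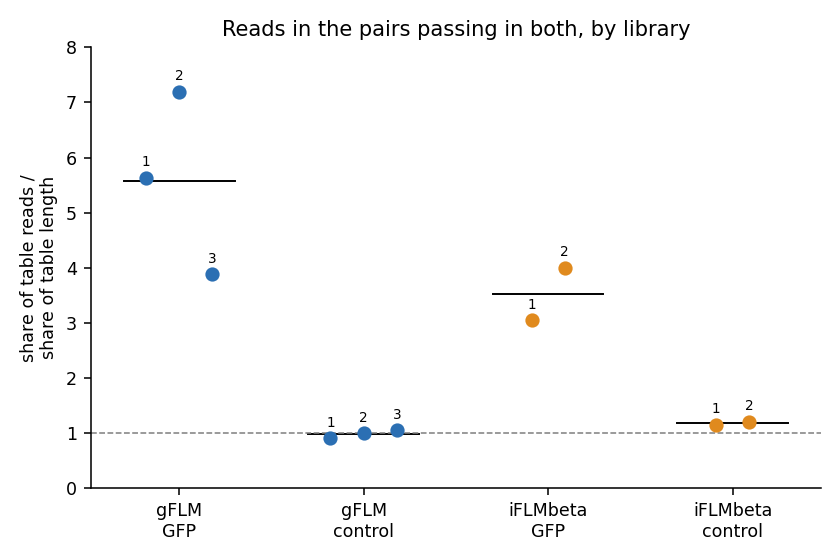
Share of a library's reads in the 109 pairs passing in both constructs, divided by those regions' share of the table's length (vertical axis, times), for each library (points, with its replicate or column number) with group means as lines. The gFLM-GFP points lie at 3.88 to 7.19 and the iFLMbeta-GFP points at 3.05 and 4, while the controls lie between 0.907 and 1.21.

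Enrichment at these 109 pairs was larger in gFLM than in iFLMbeta on the scale of each table. The median log2 ratio was 1.87 in gFLM, with quartiles of 1.51 and 2.59, and 1.22 in iFLMbeta, with quartiles of 0.82 and 1.64. The median difference per pair was 0.80, and gFLM had the larger mean at 93 of the 109 (85.3%), whereas over all 2378 pairs it did at 1146 (48.2%) with a median difference of -0.03. A difference above 1 was found at 43 of the 109 and at 179 of all 2378. One below -1 was found at 0 of the 109 and at 168 of all 2378. The spread between replicates is of the same order. The medians of the 3 gFLM replicates over the 109 pairs were 2.49, 1.97 and 1.45, and those of the iFLMbeta columns were 1.08 and 1.27. Taking each gFLM replicate against each iFLMbeta column gave median differences from 0.08 to 1.43, all 6 above 0.

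All 3 gFLM ratios lay above both iFLMbeta ratios at 41 of the 109 pairs (37.6%), where this held for 6.81% of all pairs. The reverse was found at 0 of the 109, and at 5.42% of all pairs. With the iFLMbeta control columns crossed the counts over the 109 were again 41 and 0, and the shares over all pairs were 8.54% and 6.01%.

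The choice of the pairs bears on this difference. Passing asked for a low q in 3 replicates in gFLM and in 2 in iFLMbeta, and the same threshold corresponded to different ratios. Shared gFLM regions just inside it, with a largest q between 0.04 and 0.05, had a median ratio of 1.06 (9 regions, 0.70 to 1.82), and those just outside, up to 0.06, 1.22 (21 regions). For iFLMbeta the medians were 0.60 (25 regions, 0.13 to 1.75) and 0.72 (19 regions). When pairs were chosen by iFLMbeta alone, whatever gFLM showed, the median difference was 0.50 over the 185 that passed and 0.56 over the 98 ranked 100 or better, with gFLM larger at 131 and 76 of them. Chosen by gFLM alone, it was 0.89 over 150 pairs that passed and 0.90 over 99 ranked 100 or better. The difference had the same sign from either side and a smaller size where iFLMbeta made the choice. The 2 sides are not separate, since the 109 pairs that passed in both belong to the passing sets of each. Over the 76 pairs that passed in iFLMbeta only, the median difference was -0.01 and gFLM was larger at 38. Those 76 were in turn selected for failing in gFLM, so these sets cannot separate the difference from the choice of pairs.

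**Figure D2:**
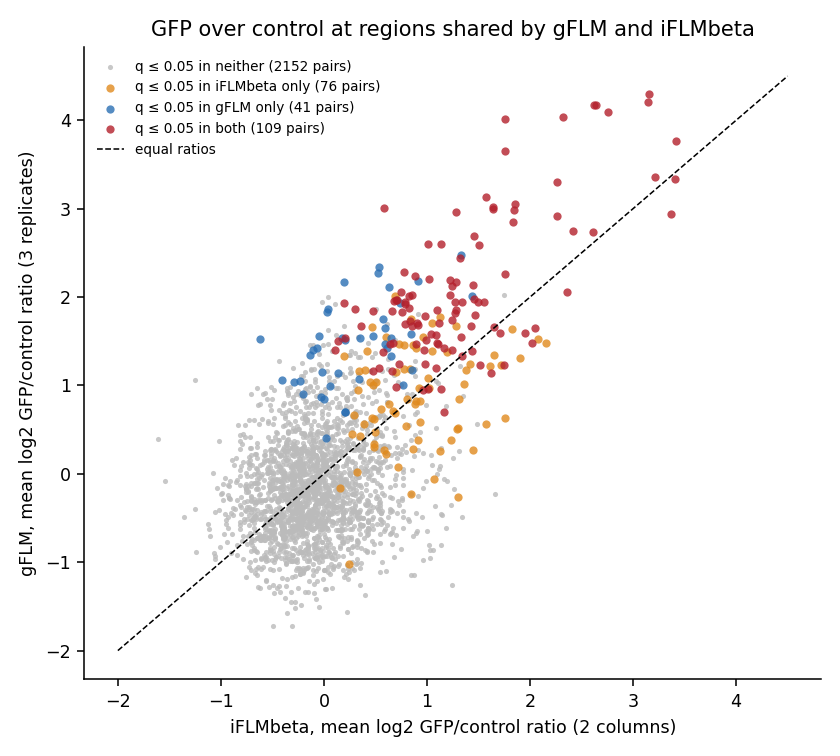
Mean log2 GFP/control ratio of each of the 2378 pairs in gFLM (vertical axis, 3 replicates) against iFLMbeta (horizontal axis, 2 columns), coloured by the construct in which the pair passed, with the line of equal ratios dashed. Of the 109 pairs passing in both, 93 lie above the line, and the 2152 passing in neither centre at -0.20 in gFLM and -0.13 in iFLMbeta.

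The order of the regions was similar in both constructs. Over the 109 pairs the authors' ranks correlated at a Spearman coefficient of 0.80 and the mean ratios at 0.51 (Pearson 0.68). Over all 2378 pairs the ratios correlated at 0.34 (Pearson 0.54), and over the 2152 that passed in neither at 0.17. These are correlations across regions, which are not independent replicates and share the libraries' depth within each construct, and both members of a passing pair were selected on these values. Among the 37 best of the 109 by summed rank the median ratios were 2.94 and 1.84, in the next 36 they were 1.82 and 1.01, and in the last 36 they were 1.52 and 0.84. The median differences of ratios in these groups were 1.01, 0.64 and 0.80, the medians of the fitted interaction described next were 1.07, 0.83 and 0.70, and 11, 4 and 1 pairs had an unadjusted p under 0.05 for it in edgeR.

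The test of the difference itself compared GFP over control in gFLM with GFP over control in iFLMbeta by an interaction term in edgeR's quasi-likelihood model, with Benjamini-Hochberg adjustment over the 2206 pairs with enough reads. None was called in either direction (0% and 0%), and the lowest adjusted p was 0.997. At an unadjusted p under 0.05 there were 35 pairs with gFLM higher (1.59%) and 5 with iFLMbeta higher (0.227%). DESeq2 also called 0, with 13 and 1 at an unadjusted p under 0.05. The edgeR shares together are smaller than the threshold of 0.05 would give if no pair differed and p were evenly spread. Over all tested pairs the 35 are therefore no excess. The 35 pairs included 16 of the 109 that passed in both, 7 of the 41 that passed in gFLM only and 12 of the 1980 tested that passed in neither. None of the 76 that passed in iFLMbeta only was among them, and the 5 pairs in the other direction all passed in neither. The classes were set by q-values from the same libraries, so this split follows in part from their choice and nothing is read from it.

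The fitted difference had a median of 0.87 over the 109 pairs, positive at 97, while its median over all tested pairs was 0.17. That background depended on the scaling and was -0.001 with DESeq2 size factors, where the median of the 109 was 0.72 and 95 were positive. Intervals for single pairs were wide, and a p that misses the threshold does not show that the constructs bound a region alike, so each difference below stands with its interval.

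Within each construct, edgeR called 25 of 5216 tested gFLM regions higher in GFP (0.479%) and 20 of 7337 iFLMbeta regions (0.273%), and 0 lower in either. With a replicate block, on numbers taken to pair the gFLM libraries, 124 gFLM regions were called higher and 4 lower, and DESeq2 called 83 higher and 0 lower. All 25 and all 20 were shared with the other table, as were 119 of the 124 (96%) and all 83. In 16 pairs both members were called, which is 64% of those called in gFLM and 80% of those called in iFLMbeta. With the block in both fits it was 14 pairs, 11.8% of those called in gFLM and 100% of those in iFLMbeta, so the first share depended on the fit. Because regions were deposited for their GFP reads in these libraries, the test describes how firmly the counts separate and adds no independent evidence of binding. These counts rest on few libraries: without the GFP library of gFLM replicate 2 edgeR called 4, without that of replicate 1 it called 13 and without the control of replicate 3 it called 14 gFLM regions, and without either iFLMbeta control or the second iFLMbeta GFP library it called 6 or 7 iFLMbeta regions.

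The pair with the best summed rank is a 3' UTR region of AT3G15470 (chromosome 3, 5216238 to 5216578 in gFLM and 5216243 to 5216547 in iFLMbeta). It had 709, 251 and 209 GFP reads against 34, 4 and 23 control reads in gFLM, and 341 and 321 against 22 and 8 in iFLMbeta. The log2 ratios were 3.07, 3.54 and 3.46 in gFLM and 3.05 and 3.38 in iFLMbeta, so the groups overlapped and all 5 values lay between 3.05 and 3.54. The interaction was 0.40, with a 95% interval of -0.95 to 1.75.

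Upstream of SEP3, which encodes a MADS-box protein of floral organ identity, the paired regions (chromosome 1, 8598618 to 8599018 and 8598646 to 8599006) had centres 8 bp apart, 2712 bp before the SEP3 start. The start of AT1G24265, on the other side, is nearer, at 1647 bp. Their log2 ratios were 4.43, 3.47 and 3.39 in gFLM and 2.82 and 4.02 in iFLMbeta. The groups overlapped, and the interaction was 0.87 (95% interval -0.61 to 2.34). A lower-ranked SEP3 pair 523 bp upstream passed in neither. Its gFLM mean was 1.48 ± 0.33 (SD, n = 3), and that of iFLMbeta was 0.43 ± 0.39 (SD, n = 2). The centres of this lower-ranked pair were 111.5 bp apart.

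Other pairs of the best 12 had gFLM ratios above every iFLMbeta ratio. Between the starts of AT2G20440 and AT2G20450 (chromosome 2, 8813484 to 8813859) they were 4.26, 4.24 and 4.40 in gFLM and 2.83 and 3.47 in iFLMbeta. The gFLM values were the tightest of the 12, and the interaction was 1.44 (95% interval 0.04 to 2.84). At the start of AT2G30600, past the end of WRKY21, which encodes a WRKY transcription factor, they were 4.10, 4.66 and 3.87 against 2.81 and 3.49. The same order was found past AT5G41071 and before GDPD2, a glycerophosphodiester phosphodiesterase gene, and between RS2Z32, which encodes a splicing factor, and ABCG20, which encodes a transporter. It was also found between AT1G44000 and AT1G44010 and between LEJ2 and AP2.

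The pair between LEJ2 and AP2 lies 2484 bp before LEJ2 and 4786 bp before AP2, which encodes a transcription factor of floral organ identity that also delays flowering (chromosome 4, 17395663 to 17395985). GFP reads in gFLM were 429, 87 and 118 against 15, 0 and 16 in the controls, and in iFLMbeta 107 and 150 against 22 and 9. This gave ratios of 3.48, 4.34 and 3.14 against 1.39 and 2.13, with no overlap, and an interaction of 1.83 (95% interval 0.33 to 3.32). At the 12 pairs together the interaction was above 0 in each, from 0.30 to 1.83, and the adjusted p was 0.997 in each. With alternative settings its sign changed at the AT3G15470 and ATC pairs.

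**Figure D3:**
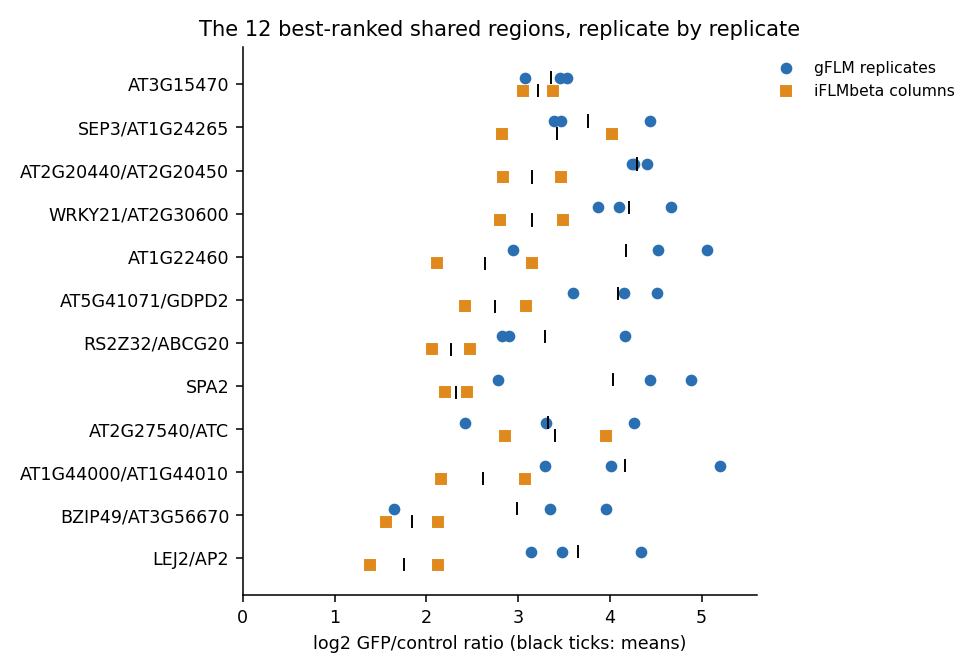
Log2 GFP/control ratio (horizontal axis) in each gFLM replicate (circles) and each iFLMbeta column (squares) at the 12 pairs with the best summed rank, with group means as black ticks. All 3 gFLM values lie above both iFLMbeta values at 7 of the 12, and the groups overlap at AT3G15470, SEP3, AT1G22460, ATC and BZIP49.

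Among 49 genes of flowering time, 19 had a shared pair within 3 kb upstream of the start or 1 kb past the end. Such a pair passed in both constructs at 5 of them, ATC, SMZ, SOC1, SVP and TEM2, and in gFLM only at TOE3. Of all shared pairs 4.58% passed in both and 1.72% in gFLM only. The 21 pairs of the list had a median difference of -0.07, against -0.03 over all pairs, and none of the 20 tested had an unadjusted p under 0.05 for the interaction. The list was drawn up with earlier results of these data known, so its counts are a description.

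ATC encodes a relative of the flowering repressor TFL1, and its pair lies 1552 bp upstream (chromosome 2, 11771531 to 11771867). The log2 ratios were 4.26, 2.43 and 3.31 in gFLM and 2.86 and 3.95 in iFLMbeta, and the groups overlapped. The interaction was 0.30, with a wide 95% interval of -1.33 to 1.93. At SOC1, a MADS-box activator of flowering, the pair lies 114 bp before the start (chromosome 2, 18810997 to 18811327) with 2.79, 3.40 and 2.57 in gFLM and 1.31 and 3.22 in iFLMbeta. One iFLMbeta column lay below the gFLM values and the other among them, and the interaction was 0.68 (95% interval -1.01 to 2.36). A second SOC1 pair, 461 bp past the end, passed in neither. All its gFLM ratios lay below both iFLMbeta ratios, with means of -1.29 ± 0.73 (SD, n = 3) and -0.25 ± 0.07 (SD, n = 2). Its 2 regions overlapped by only 5 bp and had centres 239 bp apart, so they cover mostly different sequence.

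SVP is itself the MADS-box partner of FLMbeta. Its pair is in the 5' UTR (chromosome 2, 9579994 to 9580305), and the ratios were 2.12, 1.51 and 1.58 in gFLM and 0.62 and 1.05 in iFLMbeta. Here the groups did not overlap, yet the interval of the interaction, -0.45 to 2.70 around 1.12, included 0. For SMZ, an AP2-like repressor of flowering, the ratios were 2.70, 0.47 and 1.60 against 0.99 and 2.92. TEM2, a repressor of FT, had 2.37, 0.41 and 0.64 against 1.74 and 1.50. Both overlapped, with interactions of -0.25 (-2.11 to 1.61) and -0.52 (-2.40 to 1.36) whose sign changed under some alternative settings.

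TOE3, another AP2-like gene, had 2 pairs in the space between it and DEAR2. The nearer, 1403 bp upstream, passed in gFLM only, with 1.25, 1.40 and 0.80 against -0.85 and 0.80. The farther, 3763 bp upstream and outside the assignment window, passed in both, with 2.71, 3.01 and 3.09 against 2.23 and 4.52. Its second iFLMbeta control had 0 reads, and without the first iFLMbeta control the fitted interaction there moved from -0.01 to -6.11, a value that depends on the prior count and is no bound. At 2 other MADS-box relatives of FLM on chromosome 5, MAF3 and MAF4, a single pair lies between the genes and passed in neither, at 0.39 ± 0.51 (SD, n = 3) and 0.16 ± 1.01 (SD, n = 2). Another, 811 bp past the end of MAF4 and 518 bp before MAF5, also passed in neither. Its means were -0.91 ± 1.62 (SD, n = 3) and 0.06 ± 0.08 (SD, n = 2), with region centres 157 bp apart. FLC had a pair past its end at 0.10 ± 0.53 (SD, n = 3) and -0.25 ± 0.66 (SD, n = 2), with region centres 145 bp apart.

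Of 19 genes of floral organ identity and the floral meristem, 10 had a shared pair. At 4, SEP3, AP3, SHP2 and ALC, a pair passed in both constructs, as did 4.58% of all shared pairs. The 12 pairs had a median difference of 0.13, and 1 of the 11 tested had an unadjusted p under 0.05 with gFLM higher, where 1.59% of all tested pairs did. That one was ALC, which encodes a bHLH protein of fruit opening, 150 bp upstream (chromosome 5, 26786369 to 26786698). Its ratios were 3.67, 1.93 and 3.80 in gFLM and 1.88 and 1.27 in iFLMbeta, all gFLM values above. The interaction was 1.93 (95% interval 0.29 to 3.58), and the adjusted edgeR p was 0.997.

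AP3 and SHP2, a petal and stamen gene and an ovule and fruit gene of the MADS-box family, showed no such order. At AP3, 120 bp upstream, the ratios were 1.95, 1.69 and 0.54 against 0.31 and 2.56, and the difference of means was -0.04, among the 5 smallest of the 109. At SHP2, 360 bp upstream, they were 1.37, 2.40 and 0.66 against 2.20 and 1.83, and the interaction was -1.08 (95% interval -2.98 to 0.83). That difference of means, -0.54, was the farthest below 0 among the 109 pairs. AP1 had 2 pairs that passed in neither, of which the one 86 bp upstream had a gFLM mean of 1.10 ± 0.78 (SD, n = 3) beside 0.12 ± 0.13 (SD, n = 2) for iFLMbeta. The centres of that pair were 140 bp apart.

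Of 22 light and temperature genes 10 had a shared pair. A pair passed in both constructs at 3 (SPA2, CBF1 and PIF3) and in gFLM only at CBF2, beside 4.58% and 1.72% of all shared pairs. Over the 11 pairs the median difference was 0.51 and the median interaction 0.57, against -0.03 and 0.17 over all pairs, and 2 had an unadjusted p under 0.05 with gFLM higher, where 1.59% of all tested pairs did. At the floral organ list the median interaction was 0.62. SPA2 encodes a partner of COP1 in the repression of light signalling, and its pair lies in an intron (chromosome 4, 6771765 to 6772158). Ratios there were 4.44, 4.88 and 2.78 in gFLM and 2.21 and 2.44 in iFLMbeta, without overlap, and the interaction was 1.67 (95% interval 0.20 to 3.15).

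CBF1 encodes an activator of cold-response genes. Its pair, between CBF1 and RS40 (chromosome 4, 13023431 to 13023884), had 2.57, 3.26 and 2.24 in gFLM and 0.54 and 2.37 in iFLMbeta, so the groups overlapped, with an interaction of 1.58 (95% interval 0.07 to 3.08). The neighbouring CBF2, 114 bp upstream, had 0.65, 1.20 and 0.76 against -0.60 and 0.54, and all gFLM values were above. PIF3, a phytochrome-interacting bHLH gene, had 2.45, 1.47 and 0.60 in an intron against -0.03 and 0.29, and all gFLM values were again above. Although the PIF3 pair passed in iFLMbeta by the authors' q-values, its ratios there show little enrichment. The pair 1695 bp upstream of PIF5, a gene of the same family, passed in neither. Its gFLM ratios were -0.66, -0.53 and -1.09, below 0.84 and -0.20 in iFLMbeta. The 2 regions overlapped by only 42 bp and had centres 204 bp apart, so they cover mostly different sequence. The interactions of CBF2 and PIF3 were 0.90 (-0.89 to 2.68) and 1.63 (-0.02 to 3.29). None of these pairs had an adjusted edgeR p below 0.997. Growth temperature cannot be told apart from construct and age at these genes.

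The remaining lists held few pairs. RVE2 is a MYB-like gene related to the clock genes CCA1 and LHY. Of 19 clock genes matched to a locus, it was the 1 with a pair that passed in both. That pair, 2599 bp upstream, had 2.30, 0.88 and 1.36 against 1.41 and 0.57. The interaction there was 0.84 (95% interval -0.76 to 2.43). A nearer RVE2 pair, 196 bp upstream, passed in neither. Its ratios were 1.38, 0.20 and -1.33 in gFLM, against -0.47 and 0.73 in iFLMbeta. Of 18 gibberellin genes matched to a locus, 5 had a shared pair and none passed, with gFLM ratios between -0.55 and 0.79 and iFLMbeta ratios between -0.23 and 0.33. Of 18 highly transcribed control genes matched to a locus, RBCS1A and ACT7 had a pair and neither passed, at 0.37 and 0.63 in gFLM and -0.09 and -0.02 in iFLMbeta. Their median difference was 0.56.

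**Figure D4:**
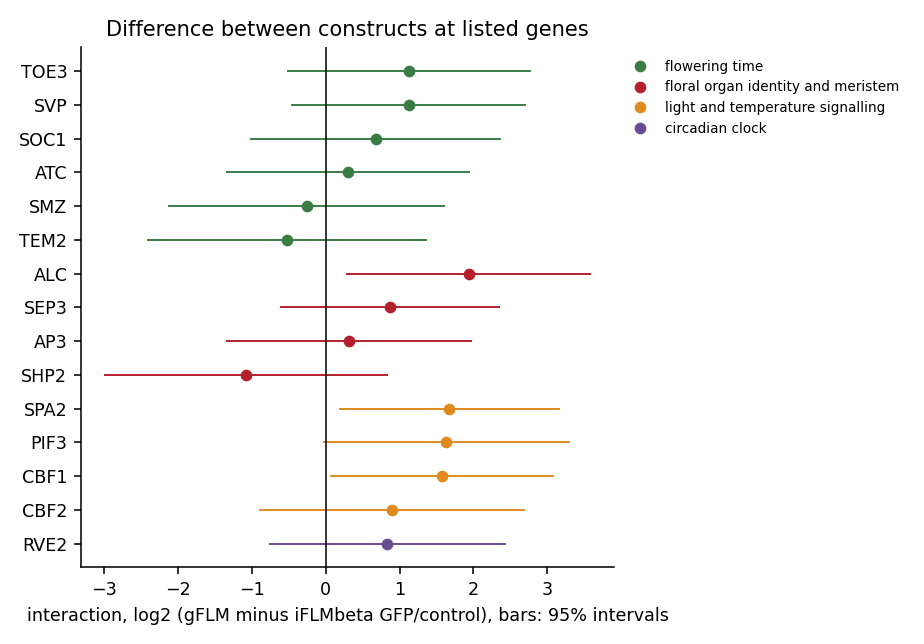
Interaction (horizontal axis, log2, gFLM GFP/control minus iFLMbeta GFP/control) with approximate 95% intervals at the listed genes whose shared pair passed in at least 1 construct, coloured by list. Point estimates run from -1.08 at SHP2 to 1.93 at ALC, and only the intervals of ALC, SPA2 and CBF1 leave out 0.

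The lowest interaction p was found in the 3' UTR of AT4G35510 (chromosome 4, 16860455 to 16860774 in gFLM and 16860567 to 16860824 in iFLMbeta). GFP reads were 194, 16 and 54 against 6, 0 and 5 in gFLM, and 58 and 75 against 22 and 13 in iFLMbeta. The ratios, 3.53, 1.97 and 3.52 against 0.51 and 0.66, did not overlap. The interaction was 2.94 (95% interval 1.23 to 4.66), with an adjusted edgeR p of 0.997, which ran from 0.175 to 1 over the alternatives. The region centres were 81 bp apart, against a median of 15.5 bp over the 109, so the 2 regions cover partly different sequence.

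Next came the space between the ends of ACA7, which encodes a calcium-transporting ATPase, and AT2G22955 (chromosome 2, 9770514 to 9770879). It had 4.92, 3.90 and 3.22 in gFLM and 1.55 and 1.96 in iFLMbeta, and an interaction of 2.80 (95% interval 0.95 to 4.65). Control reads there were few, 3, 0 and 6 in gFLM and 10 and 4 in iFLMbeta. An intron of ARV1, a gene of lipid homeostasis, followed (chromosome 1, 8239 to 8523). It passed in gFLM only, with 3.20, 1.64 and 1.67 against -0.23 and 0.62, and its interaction was 2.50 (95% interval 0.81 to 4.20). The adjusted edgeR p was 0.997 at both, as at AT4G35510. All 3 pairs had every gFLM value above both iFLMbeta values, and in iFLMbeta column 1 ARV1 had 31 control reads beside 48 GFP reads.

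In the other direction the 3 lowest p values belonged to pairs that passed in neither and had few reads. They lie before AT5G33300, before AT5G09700 and between NF-YB4, which encodes a subunit of the NF-Y transcription factor, and AT1G09040. The AT5G33300 pair had 40, 3 and 7 GFP reads against 34, 0 and 15 in gFLM and 7 and 15 against 3 and 0 in iFLMbeta. Its interaction was -2.49 (95% interval -4.62 to -0.35). The other interactions were -2.06 and -2.26, and the adjusted edgeR p was 0.997 at all 3.

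Among the 109, the pairs with the larger iFLMbeta mean had small differences. Beside SHP2, the farthest below 0 were those before AT5G57720 (-0.52), at TEM2 (-0.48), between AT1G05410 and OFP12 (-0.46) and at the farther TOE3 pair (-0.43). At AT5G57720 the gFLM values were 0.36, 2.43 and 0.90 against 1.78 and 1.71, and the first gFLM control held 100 reads, against 311 in GFP. At these 5 pairs the gFLM and iFLMbeta values overlapped. Means within 0.05 of each other were found at AT4G28564, AT4G22990, AP3, before ECT6, which encodes a reader of methylated RNA, and before NF-YB7.

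The 41 pairs that passed in gFLM only had median ratios of 1.47 in gFLM and 0.20 in iFLMbeta, and all 3 gFLM values lay above both iFLMbeta values at 22 of them, against 6.81% of all pairs. Both follow from the choice of the class, which asked for low q in gFLM and not in iFLMbeta, and nothing is read from them. The 76 that passed in iFLMbeta only had medians of 0.90 and 0.84, and the median difference was -0.01. Their gFLM replicates had medians of 1.81, 0.34 and 0.49. The median SD over gFLM replicates was 0.99, against 0.74 at the pairs that passed in both. Replicate 1, with the largest median, also held the most reads of the gFLM GFP libraries over the deposited regions. The iFLMbeta-only class asked for a failing q in at least 1 gFLM replicate, whereas passing in both asked for a low q in every replicate. Uneven gFLM replicates are thus favoured by the choice. As with the pairs that passed in gFLM only, nothing is read from this. Examples of the first, chosen after their values were seen, are 3' UTRs of HSFB2A, a heat shock factor gene (2.48 ± 0.81, SD, n = 3, and 1.33 ± 0.83, SD, n = 2), and of SKU5 (2.27 ± 0.32, SD, n = 3, and 0.53 ± 1.03, SD, n = 2), and the 5' UTR of the MADS-box gene AGL16 (1.14 ± 0.23, SD, n = 3, and 0.14 ± 0.30, SD, n = 2). An example of the second, chosen in the same way, is the 5' UTR of VEL1, a relative of the vernalization gene VIN3, with 1.46 ± 1.35 (SD, n = 3) and 0.86 ± 0.36 (SD, n = 2).

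Paired regions that passed in both coincided closely. The distance between centres had a median of 15.5 bp and was 50 bp or less at 95 of 109 (87.2%), whereas over all pairs the median was 58 bp and 44.8% were within 50 bp. It was 33 bp for pairs passing in gFLM only, 25.5 bp for iFLMbeta only and 63.75 bp for neither. Regions of the 109 were also long, with medians of 351 bp in gFLM and 286 bp in iFLMbeta against 177 and 156 bp in the whole tables. The gFLM region was the longer at 100 of them, and at 1679 of all 2378 pairs. Among the 37 best-ranked the median distance was 8 bp.

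**Figure D5:**
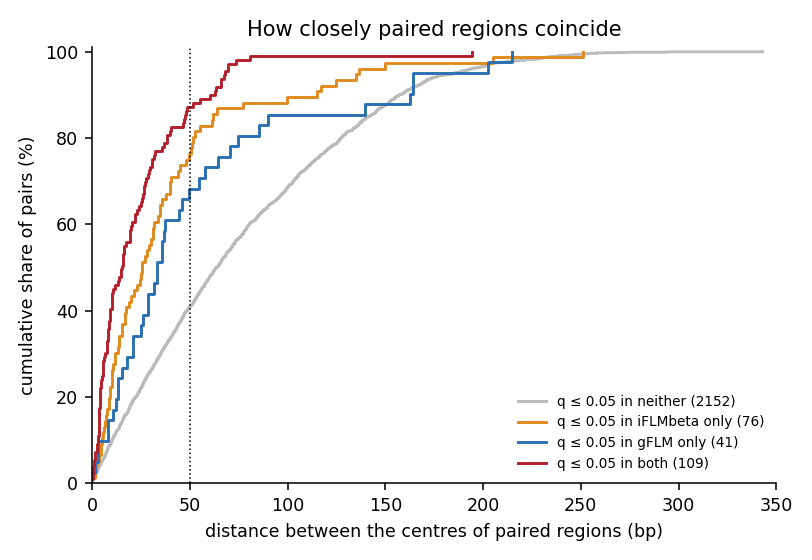
Cumulative share of pairs (vertical axis, %) by the distance between the centres of the gFLM and iFLMbeta regions (horizontal axis, bp), by passing class, with 50 bp dotted. By 50 bp the curve of the pairs passing in both has reached 87.2%, and that of the pairs passing in neither 41.1%.

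By the annotation in the tables, 87 of the 109 gFLM centres were intergenic (79.8%), against 72.6% of all shared pairs and 62.5% of the gFLM table. In coding exons lay 4.59%, 9.21% and 15.1%. Both tables gave the same annotation at 106 of the 109, and at 1975 of all 2378 pairs. Those in transcribed sequence included the 5' UTR of SVP, introns of SPA2 and PIF3 and the 3' UTR of AT3G15470. Of the pairs passing in gFLM only, 7 of 41 lay in 3' UTRs (17.1%) and 6 in introns (14.6%), where the gFLM table had 4.48% and 8.27%.

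Of the 87 intergenic centres, 50 lay between genes in tandem (57.5%), 32 between divergent genes (36.8%) and 4 between convergent genes (4.6%). The whole gFLM table had 53.8%, 34.1% and 11.5%. Within 1000 bp upstream of a start lay 47 of the 87 (54%), against 58% of the intergenic regions of the table, so nearness to a start did not set them apart from other deposited intergenic regions. Pairs of the 109 stood within 20 kb of each other at 3 places. One was AP2, with the LEJ2 pair and a second pair 13501 bp away between AT4G36925 and SPT, a bHLH gene of carpel development. The others were at AT5G01200 and AT5G01210, 11012 bp apart, and at GDPD2 and AT5G41100, 10190 bp apart. At each place the pair with the larger gFLM ratio also had the larger iFLMbeta ratio.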

How the data were processed

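ChIP-seq libraries of gFLM (3 GFP, 3 control) and iFLMbeta (2 GFP, 2 control) were used, and those of iFLMdelta were not used here. The labels' protocols describe PCR amplification and Genome Analyzer II sequencing. Positions are in build TAIR10 according to the submitters' processing notes. No source used here names the aligner, the peak caller or the duplicate handling. For each construct the authors deposited a region table with, per the file headers, raw read counts per library without normalization, for each replicate a q-value adjusted after Benjamini and Hochberg, the rank product of those q-values on a log2 scale, and its rank as a score (1 is best). Totals of mapped reads are not in these tables, so sums over regions are not sequencing depths, and reads have no molecular identifiers. The gFLM columns carry replicate numbers. Those of iFLMbeta name the group but no single library, and 0 columns of per-sample values lacked a group.

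The 14 gFLM regions off chromosomes 1 to 5 were left out. Ratios used a pseudocount of 1 read and column sums of the same table. edgeR 4.0.16 in R 4.3.3 (glmQLFit, glmQLFTest) used these sums as library sizes, filterByExpr (minimum count 10, total 15) and Benjamini-Hochberg adjustment at 0.05, and was tested on simulated data. The interaction fit covered all 10 libraries without a replicate block. Its 95% intervals are approximate, from the quasi-likelihood F. DESeq2 1.42.0, TMM, other filters, overlaps and pseudocounts, and leaving out each library were alternatives. In gFLM, deviations of same-numbered GFP and control libraries correlated at 0.53, 0.25 and 0.13 over 5216 regions, each above 0.1, and the numbers were taken to pair the libraries. For GFP library 3 this is weak, since its correlation with control 2 was 0.12. For iFLMbeta no such pairing is given, and deviations of same-numbered columns correlated at -0.088 over 7337 regions, and those of crossed columns at 0.088. The replicate block of iFLMbeta therefore rests on column position alone.

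Gene names came from the tables and from RefSeq (TAIR10.1) by locus. RVE6, RGA and EF1A of the lists were not matched. In 5132 gFLM and 1132 iFLMbeta rows the gene to the right is cut off, which limits assignment to genes. Named pairs were the 12 with the best summed rank, the 3 with the lowest interaction p in each direction (none being called), listed genes whose pair passed, and, among pairs passing in both, the 5 largest differences in each direction and the 5 smallest. The members and gene lists were chosen with earlier results of these data known. Sequence motifs were not analysed here.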

Additional observations from a re-analysis of the deposited data

How the results depend on the processing

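In the interaction test 0 pairs were called under the main settings and under each of 20 alternatives, the lowest adjusted p being 0.175, when adjusted only over the 226 pairs passing in a construct. With the replicate block the count was 0 in either direction and the lowest adjusted p 0.764. Over the 109 pairs passing in both, the median interaction ran from 0.69 to 1.16, and the median difference of ratios was 0.50 with a pseudocount of 5, 0.87 with 0.5, and 0.60 to 0.97 with 1 replicate left out. Of 753 values at the 38 named pairs, 26, in 12 pairs, had another sign, and none was called.

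The 25 gFLM regions called higher in GFP became 14 with TMM, 13 with DESeq2 size factors, 83 with DESeq2, 10 without the filter and 124, with 4 lower, with the replicate block. Leaving out 1 library gave 4 to 24, and leaving out both of replicate 2, chosen after seeing the data, gave 2. The 20 of iFLMbeta became 19 with DESeq2, and 6 to 17 otherwise. The cause was not tested. Medians also moved with a pseudocount of 5: at pairs passing in both to 1.23 in gFLM and 0.74 in iFLMbeta, in gFLM only to 0.70 (gFLM), in iFLMbeta only to 0.35 (iFLMbeta), in neither to -0.57 and -0.50. Those of iFLMbeta with 1 column left out were 1.08 to 1.27 (both), 0.53 to 0.95 (iFLMbeta only) and -0.067 to -0.047 (neither, and -0.125 without a gFLM replicate), and in neither they were -0.045 with a pseudocount of 0.5 and -0.10 with background scaling. Overlap of 50% of both regions left 1383 pairs, and q of 0.01 or less left 68 passing in both. The small depth of gFLM replicate 2 limits every gFLM value.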
